A study of Mus musculus with 24 samples.

Results

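The comparison described here is that of diphtheria toxin (DT) with saline at the 24 h time point, 1 day after the toxin was used to deplete Lgr5-expressing cells from mouse intestinal tumours. Its members are the 8 libraries labelled 24h, of 24 in the series: 4 labelled DT and 4 labelled Saline, each a poly(A) RNA library from small intestine sorted as "bulk", with EpCAM, an epithelial surface protein, in the sample names. All 8 carry the genotype label AKVPL, so the control libraries share whatever alleles that label stands for; the labels used here give no promoter for the toxin's target, no dose and no age. They also do not say that the libraries came from separate animals, so the p-values below measure a spread between libraries, which may be technical. The other 16 libraries entered the fit only to share its estimate of the spread, and those of 96 h also serve where the early effect is set beside the later one.

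Diphtheria toxin enters cells that carry its receptor and modifies elongation factor 2 at a diphthamide residue, which stops protein synthesis and kills the cell. Mouse cells bind the toxin poorly unless they are given a receptor, which is the basis for removing a chosen cell type. Lgr5 is a receptor for R-spondins on intestinal stem cells and marks cells with stem properties in intestinal tumours. When epithelial cells enter growth they raise the factories that make ribosomes, charge tRNAs, build nucleotides and import proteins, and these groups are described first.

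The 8 libraries held between 11315650 (DT 1) and 27633431 (DT 2) counts of uniquely aligned reads. The common coefficient of variation between libraries was 0.073 for saline and 0.157 for DT. Over all 24 libraries, which share the spread used in the gene tests, it was 0.12, below that of DT. Of the variance among the 8 libraries, 51% lay on a first axis that separated the treatments and 17.5% on the next principal component, with DT 1 at -41.49 and DT 3 at 33.64 at its ends. Summed markers of fibroblasts were also uneven within DT, at 4118, 9420, 9503 and 5781 CPM in DT 1 to 4 against 5116 to 6049 CPM in saline. Here CPM are counts per 1e6 of a library whose size was adjusted by TMM, a scaling between libraries. The nuclear noncoding RNA Malat1 ranged from 275 CPM in DT 3 to 1435 CPM in DT 1, and from 816 to 1547 CPM in saline. The part of these differences between DT libraries in the results was not tested.

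Lgr5, the gene the depletion was aimed at (chr10:115450314-115587780, GRCm38), was at 179, 209, 194 and 217 CPM in saline 1 to 4 and at 84, 84.8, 77 and 79.5 CPM in DT 1 to 4. The highest DT library stood far below the lowest of saline. The fitted level fell by 1.30 on the log2 scale (SE 0.12), which is 2.46-fold, with an adjusted p of 4.4e-08 in edgeR's quasi-likelihood test with Benjamini-Hochberg adjustment over all 17468 genes tested, the test behind every adjusted p below. In a sorted population, fewer cells of a type and less RNA per cell cannot be told apart, here or for any gene below.

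Across the transcriptome, 3469 genes (19.9%) were higher in DT and 3296 (18.9%) were lower at an adjusted p of 0.05, so 38.7% of all genes tested were called. Most of these changes were small: 4264 of the 6765 called genes (63%) changed by less than 1.5-fold, and the median absolute log2 difference over all genes tested was 0.26. At least 2-fold changes numbered 578 higher (3.31%) and 487 lower (2.79%). The 2 treatments did not overlap in 6006 genes (34.4%), of which 5454 were also called. Counts of list members below are to be read against these shares.

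The calls were not spread evenly over abundance. In the class under 1 CPM, 15.4% of 1945 genes were called, against 46.4% of 8156 genes between 10 and 100 CPM and 48.8% of 2606 genes between 100 and 1000 CPM. The median standard error fell from 0.41 in the lowest class to 0.07 between 100 and 1000 CPM, and the smallest difference called was 0.58 in the lowest class and 0.11 in that higher class. Changes in scarce transcripts of the size that was called in abundant ones were therefore not detectable at this depth. The most abundant class stood apart in its direction. Of 53 genes at 1000 CPM or more, 22 (41.5%) were lower and 7 (13.2%) higher, with a median log2 difference of -0.16.

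**Figure D1:**
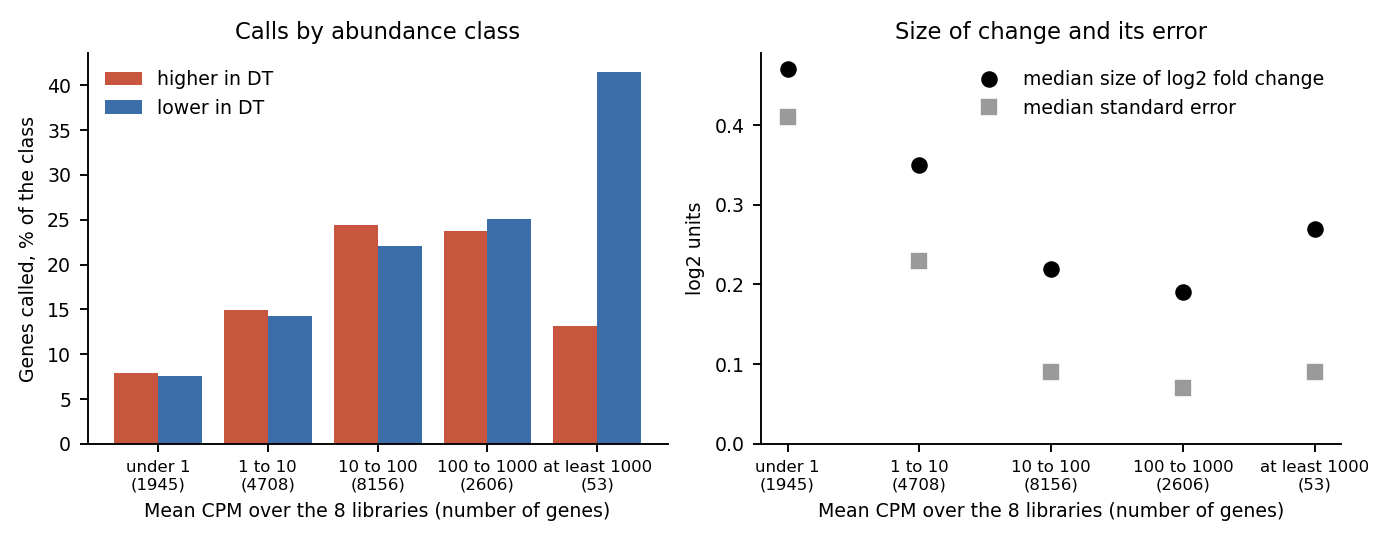
Calls by abundance class. The bars give the percentage of genes tested in each class of mean CPM that were higher or lower in DT at 24 h, from 1945 genes under 1 CPM to 53 genes at 1000 CPM or more. The share lower exceeds the share higher most in the class of 1000 CPM or more (41.5% against 13.2%).

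The summed share of counts had the same direction. Genes at 1000 CPM or more took 10.1%, 9.71%, 9.28% and 9.85% of counts in saline 1 to 4 and 8.53%, 8.69%, 9.12% and 8.5% in DT 1 to 4. DT 3 was the closest to saline, and the groups did not overlap (exact two-sided permutation p = 0.0286, the smallest that 4 against 4 allows, and 0.0508 adjusted over the 16 library measures). Among the abundant genes that fell were those of the mitochondrial genome, described below, such as CYTB (means of 3903 CPM in saline and 2353 CPM in DT). Genes of secreted and of other proteins fell too. Clu, which encodes the chaperone clusterin, was at 11237, 10327, 8718 and 10500 CPM in saline and 7303, 6940, 8972 and 7896 CPM in DT. DT 3 lay above saline 3, so the groups overlapped, and the log2 difference was -0.39 (SE 0.09, adjusted p 0.0019 in edgeR). Fn1, for the matrix protein fibronectin, went from 6818 to 8745 CPM in saline to 4016 to 6418 CPM in DT, without overlap (log2 -0.54, SE 0.18, edgeR adjusted p 0.0219). That call was lost when DT 4 or saline 4 was left out, and when low genes were kept. Spp1, which encodes the matrix protein osteopontin, was at 1140 to 1752 CPM in saline and 572 to 1148 CPM in DT with overlap. Its call (log2 -0.78, SE 0.26, edgeR adjusted p 0.021) was lost without DT 1, DT 4 or saline 2, and when low genes were kept. Ctsd, for the lysosomal protease cathepsin D, fell by 0.61 (SE 0.10, edgeR adjusted p 2.0e-05) from 1450 to 1867 CPM to 922 to 1169 CPM, without overlap. The amyloid-precursor-like gene Aplp2 was at 1743, 1784, 1625 and 1762 CPM in saline and 772, 816, 888 and 953 CPM in DT, a fall of 1.01 (SE 0.10, edgeR adjusted p 3.6e-08).

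Of the lists examined outside interferon and cell-cycle genes, the highest share called higher was that of the factors that build ribosomes in the nucleolus. Of 77 such factors tested, 74 were higher and none lower in edgeR (3 were not called), with a median log2 difference of 0.49 against -0.00 over all genes, and the groups did not overlap in 73. Nop56, a core protein of the box C/D particles that guide methylation of ribosomal RNA (chr2:130274367-130279313), was at 77.7, 79.6, 94.9 and 87.5 CPM in saline and 195, 180, 202 and 167 CPM in DT. Every DT library was well above every saline library, and the level rose by 1.13 on the log2 scale (SE 0.07, edgeR adjusted p 8.3e-11). Rrp12, a factor for export of ribosomal subunits, was at 23, 18.6, 23.4 and 22.3 CPM against 49, 45.7, 53.2 and 37.3 CPM (log2 1.08, SE 0.09, edgeR adjusted p 1.0e-08). The ribosomal RNA methyltransferase gene Nop2 was at 60.4 to 64 CPM in saline and 100 to 131 CPM in DT, again without overlap (log2 0.84, SE 0.07, edgeR adjusted p 8.9e-09). The abundant nucleolar protein gene Ncl was at 794, 729, 752 and 814 CPM and then 1036, 1082, 1308 and 1034 CPM, with DT 3 highest (log2 0.53, SE 0.07, edgeR adjusted p 2.2e-06). Summed over the list, these factors took 0.519% of counts in saline on average and 0.76% in DT.

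Genes downstream of ribosome assembly rose in fewer numbers. Of 81 genes for cytosolic ribosomal proteins, 24 were higher and 0 lower in edgeR with a median of 0.23, a share of the list that lies not far above the 19.9% of all genes. Most ribosomal protein genes have processed copies in the genome, and the files count only uniquely aligned reads, so their levels are uncertain. Rpl3 went from 15.6 to 24 CPM on average (log2 0.62, SE 0.10) and Rpl10a from 28.2 to 44.1 CPM (log2 0.64). Their summed share of counts, 0.789% ± 0.0397 (SD, n = 4) in saline and 0.847% ± 0.0636 (SD, n = 4) in DT, did not differ beyond the spread (exact two-sided permutation p = 0.171, 0.249 adjusted over 16 measures). Of 45 translation factors, 26 were higher and 3 lower. Eif4e, the cap-binding factor, was at 41.3 to 47.5 CPM in saline and 59 to 67.5 CPM in DT (log2 0.46, SE 0.06, edgeR adjusted p 2.6e-06). Eef2, the elongation factor that the toxin modifies, was at 3362, 3054, 3144 and 3226 CPM in saline and 2617, 2608, 2935 and 3094 CPM in DT. Only DT 4 overlapped with saline, and the difference of -0.18 (SE 0.06) had an edgeR adjusted p of 0.0227. Of the 9 genes for diphthamide synthesis and Eef2 together, 2 were higher and 1 was lower.

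Enzymes that charge tRNAs with amino acids rose as a group: 17 of 22 cytosolic tRNA synthetases were higher, none was lower in edgeR, and the median was 0.38. The largest was Vars, the valine enzyme (chr17:35000907-35016329), at 321, 341, 338 and 322 CPM in saline and 560, 564, 609 and 606 CPM in DT. Its groups were tight and far apart (log2 0.82, SE 0.06, edgeR adjusted p 9.3e-10). Eprs, which charges both glutamate and proline, went from 229 to 237 CPM to 297 to 319 CPM (log2 0.40, SE 0.04, edgeR adjusted p 3.3e-07). Of 22 host genes of small nucleolar RNAs, whose introns release the guides for ribosomal RNA modification, 10 were higher and 1 lower. Snhg15 was at 6.44 to 8.1 CPM in saline and 22.6 to 27.3 CPM in DT (log2 1.84, SE 0.13, edgeR adjusted p 8.6e-10). Snhg16 was at 14.1 to 17.5 CPM and 23.2 to 26.6 CPM (log2 0.66, SE 0.08). Both were free of overlap. Gas5, another host gene, was not called (log2 0.11).

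**Figure D2:**
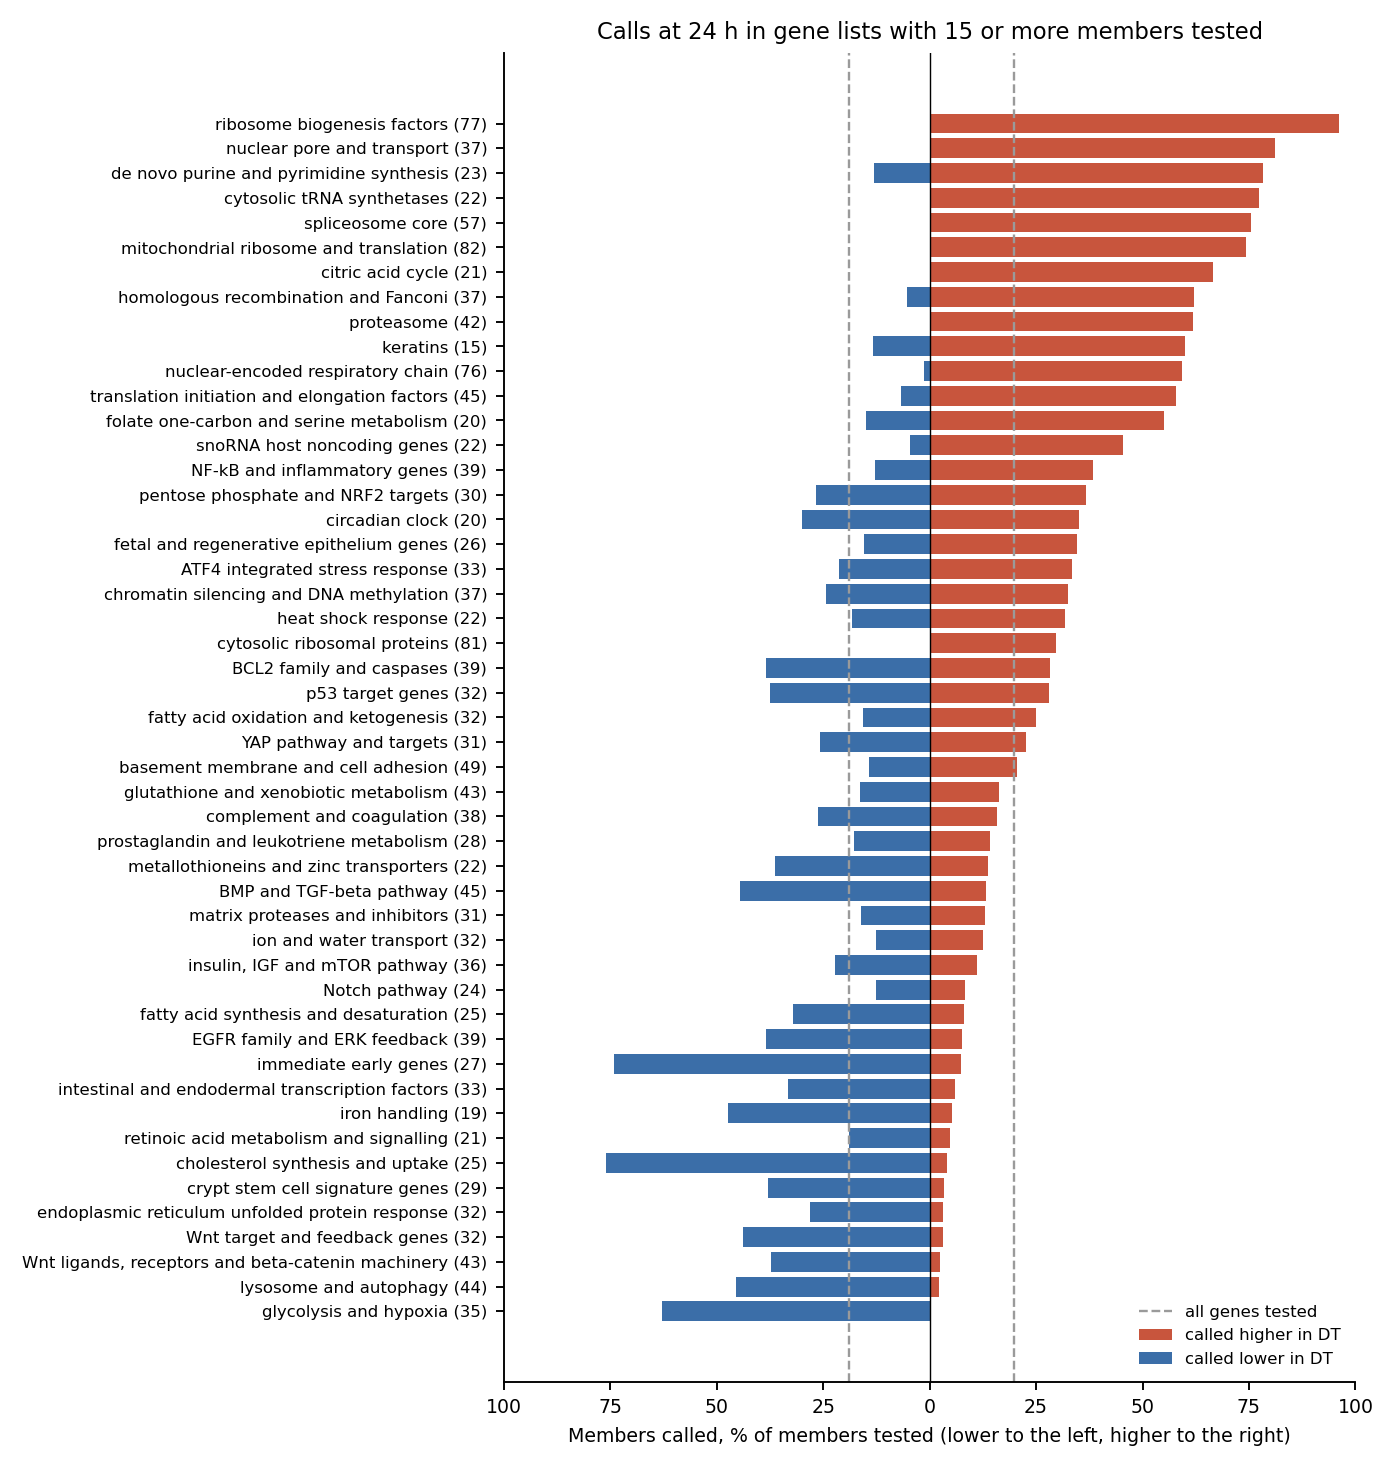
Share of gene lists called higher and lower in DT at 24 h, in percent of members tested. The share over all genes (19.9% higher, 18.9% lower) is given as reference lines. Lists with fewer members tested than the keratins (15) are not drawn, nor are those of cell types, interferon and cell cycle. Factors for ribosome assembly (74 of 77 higher) and genes of glycolysis and hypoxia (22 of 35 lower) differ in direction.

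The promoters of these genes are shown because windows of 3 lists, picked from more, held certain short motifs in a larger share than the windows of all genes tested. In all, 13 motifs were searched, and lists not printed also exceeded that share. CCAAT was in 80% of 20 windows of cholesterol genes against 37% of all. TGATGCAA was in 17.1% of 35 windows of genes listed for ATF4 against 0.672%. Other shares lay below that of all genes tested. Each RefSeq window (GRCm38.p6) runs from 250 bases before a start to 50 after it, and 16074 windows of 12606 genes tested were searched on both strands, with different motifs counted separately even where they overlap. The ETS-type motif ACTTCCGG was in 29.5% of 78 windows of ribosome assembly factors, 6.77% of the windows of all genes tested, 9.31% of those of genes that were higher and 4.35% of those of genes that were lower. The E-box CACGTG was in 19.2% of the ribosome assembly windows and 9.24% of all. Stretches of 5 members, chosen after the motif shares were known, are printed 5′ to 3′ on the gene's strand with the motif or its reverse complement in capitals.
Gar1 (box H/ACA particle protein, log2 0.67), chr3:129831417-129831456, minus strand, ETS type: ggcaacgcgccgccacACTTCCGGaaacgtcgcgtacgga
Heatr1 (ribosomal RNA transcription and processing, log2 0.60), chr13:12395343-12395374, plus strand, ETS type: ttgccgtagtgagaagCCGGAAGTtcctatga
Wdr74 (large-subunit assembly, log2 0.55), chr19:8735796-8735835, plus strand, ETS type: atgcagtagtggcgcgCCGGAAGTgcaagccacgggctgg
Nop2 (ribosomal RNA methyltransferase, log2 0.84), chr6:125131807-125131844, plus strand, E-box: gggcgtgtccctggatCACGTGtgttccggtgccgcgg
Imp4 (small-subunit processing, log2 0.50), chr1:34439692-34439729, plus strand, E-box: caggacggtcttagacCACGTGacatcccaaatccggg

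Among tRNA synthetases, 25% of 16 windows held TGATGCAA, a composite motif known for C/EBP and ATF factors, against 0.672% of all windows. Aars, for alanine, and Tars, for threonine, both rose by a log2 of 0.38 and hold it on the opposite strand. Aars was at 121 to 124 CPM in saline and 145 to 177 CPM in DT. Tars was at 78 to 83.2 CPM and 95.9 to 119 CPM, and neither gene's groups overlapped.
Aars, chr8:111033714-111033753, plus strand: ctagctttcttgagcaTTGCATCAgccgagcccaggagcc
Tars, chr15:11399659-11399689, minus strand: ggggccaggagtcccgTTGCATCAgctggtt
Genes of lysosomes and autophagy, which were called lower more than higher, held the E-box in 33.3% of 39 windows. Of 44 such genes, 20 were lower and 1 was higher, with a median of -0.14 (13 lower when low genes were kept, and 12 with a replicate block). Ctsf, for cathepsin F, fell by 0.91 (from 49.7 to 26.4 CPM on average), Ctsd fell by 0.61 and Glb1, the lysosomal beta-galactosidase, fell by 0.58.
Ctsf, chr19:4855070-4855107, plus strand: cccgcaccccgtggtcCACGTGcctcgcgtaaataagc
Ctsd, chr7:142387904-142387941, minus strand: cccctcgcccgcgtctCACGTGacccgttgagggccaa
Glb1, chr9:114401014-114401051, plus strand: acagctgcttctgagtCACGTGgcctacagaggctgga
The same 6 letters thus stand in promoters of genes that rose and of genes that fell. A match describes letters and not binding. The TATA box was in 8.22% of all windows, in 12% of those of genes at least 2-fold higher and in 15.9% of those of genes at least 2-fold lower.

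Enzymes that supply building blocks were mostly higher. Of 23 genes of nucleotide synthesis, 18 were higher and 3 lower, with a median of 0.46. Cad, which carries out the opening steps of pyrimidine synthesis, was at 93.9, 103, 96 and 94.5 CPM in saline and 169, 185, 209 and 147 CPM in DT. All DT libraries were above saline, with DT 3 highest (log2 0.88, SE 0.08, edgeR adjusted p 1.3e-08). Of 20 genes of serine, glycine and one-carbon metabolism, 11 were higher and 3 lower. Psat1, an enzyme of serine synthesis, was at 30.3 to 34.4 CPM in saline and 65.6 to 93.5 CPM in DT (log2 1.23, SE 0.10, edgeR adjusted p 2.9e-09). Among genes listed as targets of ATF4, Slc6a9, a glycine transporter, went the other way, from 136 to 167 CPM to 45.8 to 58.7 CPM (log2 -1.45, SE 0.12, edgeR adjusted p 6.2e-09). Pycr1, for proline synthesis, fell further: it was at 185, 240, 175 and 180 CPM in saline and 40.7, 51.1, 52 and 76 CPM in DT, and fell by 1.82 (SE 0.19, edgeR adjusted p 2.5e-07). So a serine enzyme rose where a transporter for glycine and an enzyme for proline fell. Among polyamine genes, the spermidine synthase gene Srm rose from 30.5 to 35.6 CPM to 53.8 to 84.4 CPM (log2 1.03, SE 0.11), and Smox, which oxidises spermine, fell by 0.67 from a mean of 266 to 167 CPM.

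The amino acid response was not uniform. Atf4, its transcription factor, was at 256 to 299 CPM in saline and 372 to 398 CPM in DT without overlap (log2 0.45, SE 0.08, edgeR adjusted p 6.8e-05). Of 33 genes listed as its targets or partners, 11 were higher and 7 lower, with a median of 0.05. Ddit3, a target linked to cell death, was not called (log2 0.22, edgeR adjusted p 0.128), and Trib3 was at 10.3 to 13.4 CPM in saline and 7.18 to 9.53 CPM in DT (log2 -0.49, SE 0.14, edgeR adjusted p 0.00673). Of 32 genes of the unfolded protein response in the endoplasmic reticulum, 1 was higher and 9 were lower. Ero1a, an oxidase for disulfide bonds, fell from a mean of 170 to 68.3 CPM (log2 -1.32), and Xbp1, a transcription factor of that response, from 217 to 148 CPM (log2 -0.55).

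Nuclear genes for mitochondria were mostly higher. Those protein-coding genes of the mitochondrial genome that could be tested were mostly lower. Of 76 nuclear genes for the respiratory chain tested, 45 were higher and 1 was lower (median 0.30), and of 82 mitochondrial ribosome genes 61 were higher and none lower in edgeR (median 0.35). Cyc1, for cytochrome c1 of complex III, was at 145, 139, 133 and 129 CPM in saline and 210, 216, 261 and 222 CPM in DT, without overlap (log2 0.74, SE 0.08, edgeR adjusted p 1.2e-07). Atp5b, the catalytic subunit of ATP synthase, was at 1305, 1205, 1163 and 1248 CPM and then 1594, 1541, 1795 and 1703 CPM (log2 0.43, SE 0.06, edgeR adjusted p 1.3e-05). Both rose in all DT libraries. Of 13 listed protein-coding genes of the mitochondrial genome found in the counts, 8 were tested, and the rest did not pass the low-count filter. Of these 8, 7 were lower and none higher in edgeR. With its tRNA and rRNA genes, 24 genes of that genome were tested and 9 were lower (37.5%). CYTB, for cytochrome b, also a subunit of complex III (positions 14145 to 15288 of the mitochondrial genome), was at 4318, 3797, 3528 and 3970 CPM in saline and 2905, 2135, 1939 and 2431 CPM in DT. The highest DT library was below the lowest saline library, and the level fell by 0.73 (SE 0.10, edgeR adjusted p 2.5e-06). COX1, for the core of complex IV, fell by 0.57 from a mean of 3684 to 2485 CPM, and ND5, for complex I, fell by 0.67 from 1409 to 887 CPM. COX2 was the gene not called, at 0.759 and 0.636 CPM (log2 difference edgeR adjusted p 0.576). The counts are of uniquely aligned reads, so they may not cover all transcripts of this genome. Cyc1 and CYTB, subunits of the same complex, thus differed in sign.

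As shares of all counts, the nuclear respiratory genes took 0.822%, 0.772%, 0.764% and 0.781% in saline and 0.965%, 0.949%, 1.07% and 1.05% in DT, and the protein-coding genes of the mitochondrial genome took 1.51%, 1.32%, 1.26% and 1.38% in saline and 1.13%, 0.848%, 0.728% and 0.948% in DT. Neither pair of groups overlapped (each exact two-sided permutation p = 0.0286, the smallest possible, 0.0508 adjusted over 16 measures). DT 3 had the highest nuclear and the lowest mitochondrial share, and DT 1 the highest mitochondrial share of the DT libraries. These are also the libraries at the ends of the axis within DT described above. The part of that axis in the difference was not tested.

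**Figure D3:**
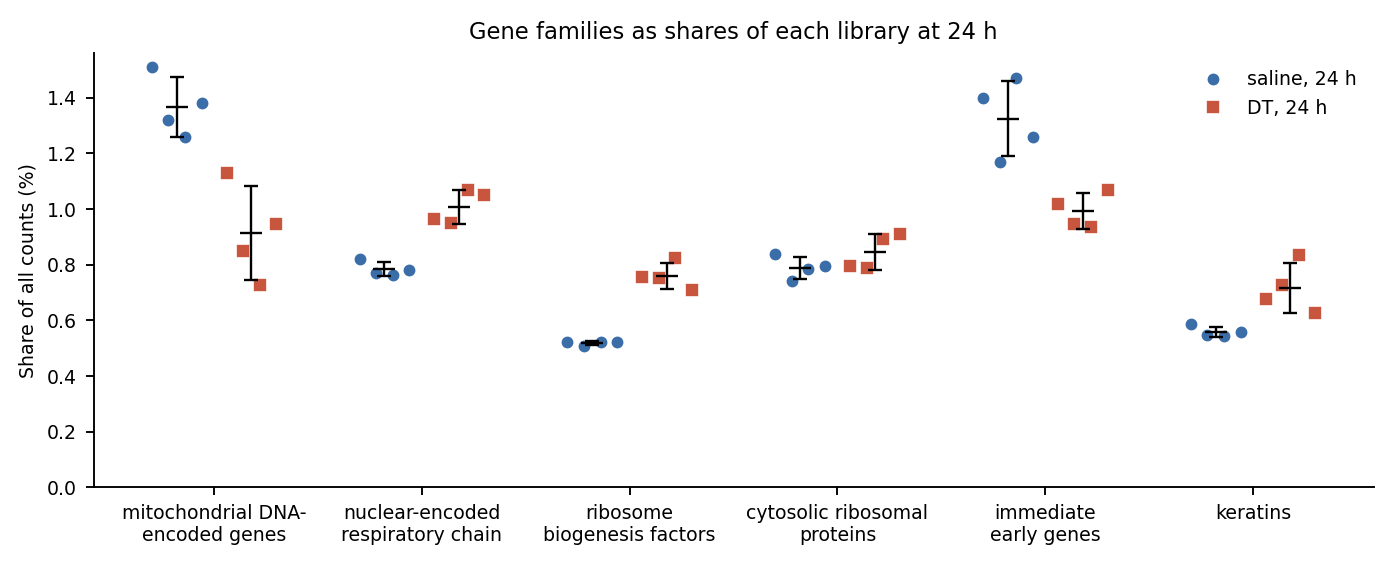
Share of all counts, in percent, taken by gene groups in each of the 8 libraries at 24 h. Points are libraries. The protein-coding genes of the mitochondrial genome lie between 1.26% and 1.51% in saline and between 0.728% and 1.13% in DT, and nuclear genes of the respiratory chain lie between 0.764% and 0.822% and between 0.949% and 1.07%.

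Machinery for handling RNA and protein was higher in DT. Of 57 spliceosome genes 43 were higher and none lower (median 0.35), of 37 genes of the nuclear pore and transport 30 were higher and none lower (median 0.45), and of 42 proteasome genes 26 were higher and none lower in edgeR (median 0.26, and 17 higher without DT 3). Sf3b3, a splicing factor, was at 250, 254, 257 and 265 CPM in saline and 395, 380, 425 and 374 CPM in DT (log2 0.62, SE 0.05, edgeR adjusted p 2.6e-09). The import receptor Ipo5 was at 188 to 202 CPM and 274 to 352 CPM (log2 0.64, SE 0.06, edgeR adjusted p 4.4e-08). Both sets of groups were far apart. Of 14 genes of the chaperonin that folds actin and tubulin, 12 were higher and 1 was lower. Cct6a was at 162 to 173 CPM in saline and 215 to 258 CPM in DT (log2 0.52, SE 0.06, edgeR adjusted p 2.5e-07). Heat shock genes were mixed, with 7 of 22 higher and 4 lower. Dnajb1, an inducible cochaperone, was at 661, 548, 688 and 514 CPM in saline and 411, 293, 317 and 431 CPM in DT and fell by 0.73 (SE 0.11, edgeR adjusted p 1.4e-05). Hspa4, a relative of HSP70, rose by 0.35 from a mean of 392 to 501 CPM.

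Among clock genes, which keep daily rhythms in most cells, 1 gene stood far from the others. Nr1d1, for the nuclear receptor REV-ERB alpha that represses Bmal1 (chr11:98767932-98775377), was at 50.6, 48.1, 50.5 and 45.7 CPM in saline and 260, 249, 232 and 274 CPM in DT. It rose 5.21-fold, with little spread in either group (log2 2.38, SE 0.12, edgeR adjusted p 6.2e-12). Dbp, an output gene of the clock, was at 14.3 to 16.3 CPM and 20.3 to 30.1 CPM (log2 0.76, SE 0.11, edgeR adjusted p 6.9e-06). Nfil3, a repressor that acts against Dbp, was at 68.4 to 71 CPM in saline and 41.1 to 43.8 CPM in DT (log2 -0.71, SE 0.08, edgeR adjusted p 4.1e-07). Per1 was at 45.3, 46.3, 60.1 and 48.8 CPM and 83.6, 80, 59.8 and 82.3 CPM, so DT 3 overlapped with saline 3 (log2 0.61, SE 0.11, edgeR adjusted p 9.8e-05). Clock and Per2, both core genes, were not called (log2 -0.01 and -0.05). Over the list of 20 tested, 7 were higher and 6 lower, with 4 higher without saline 2 and 3 lower without DT 2, so the list as a whole had no direction. The time of day at which samples were taken is not in the labels used here.

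**Figure D4:**
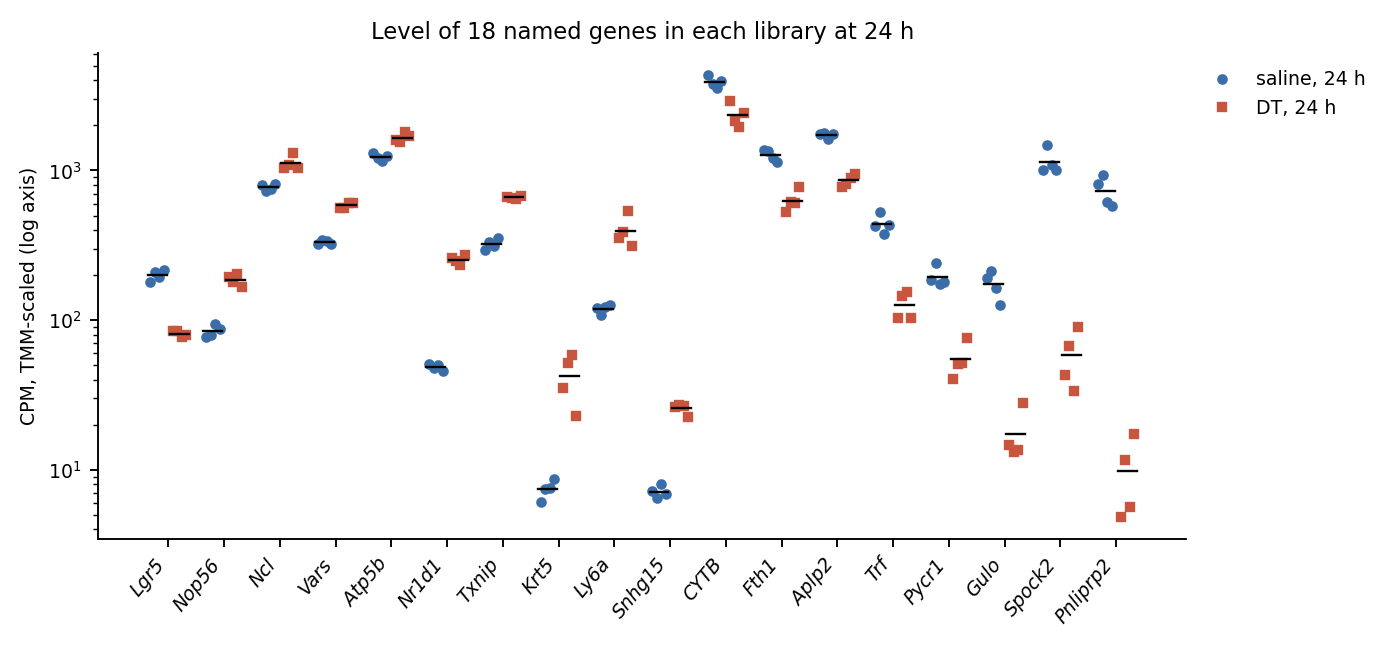
Level of named genes in each library at 24 h, in CPM on a log axis. Points are the 4 saline and the 4 DT libraries. Nr1d1 lies between 45.7 and 50.6 CPM in saline and between 232 and 274 CPM in DT, and Pnliprp2 lies between 576 and 926 CPM and between 4.88 and 17.3 CPM.

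Several other genes rose sharply and with little spread. Txnip, an inhibitor of thioredoxin whose transcript follows glucose (chr3:96557957-96561857), was at 294, 331, 315 and 354 CPM in saline and 666, 656, 645 and 679 CPM in DT (log2 1.03, SE 0.09, edgeR adjusted p 7.5e-09). Ppp1r10, a nuclear regulator of protein phosphatase 1, was at 61.8 to 72 CPM and 165 to 188 CPM (log2 1.41, SE 0.09, edgeR adjusted p 2.3e-10). The groups were well apart for both. Myc, a driver of growth genes, was at 166, 153, 173 and 156 CPM in saline and 224, 214, 257 and 225 CPM in DT (log2 0.51, SE 0.07, edgeR adjusted p 3.4e-06).

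Keratins and some surface genes of injured or squamous epithelium were higher in DT, with more spread. Of 15 keratins tested 9 were higher and 2 lower, with a median of 0.40. Krt18, a keratin of simple epithelia, was at 2344, 2032, 2132 and 2244 CPM in saline and 2687, 2789, 3224 and 2581 CPM in DT (log2 0.37, SE 0.08, edgeR adjusted p 7.6e-04). Krt5, a keratin of basal cells of stratified epithelia (chr15:101707069-101712905), was at 6.1, 7.49, 7.61 and 8.7 CPM and 35.4, 52.1, 58.2 and 22.8 CPM (log2 2.50, SE 0.38, edgeR adjusted p 3.1e-05). The DT libraries differed among themselves, with DT 3 highest and DT 4 lowest for both. Ly6a, a surface protein induced in regenerating crypts and by interferon, followed the same order at 353, 386, 536 and 311 CPM in DT against 108 to 127 CPM in saline (log2 1.73, SE 0.18, edgeR adjusted p 1.5e-07). Krt17, a keratin of stressed epidermis, went the other way without overlap, from a mean of 163 to 106 CPM (log2 -0.62, SE 0.09, edgeR adjusted p 6.2e-06). Krt7 overlapped between groups and lost its call without DT 3 (log2 0.25 there, 0.38 with it) and with a replicate block.

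Of 26 genes of fetal and regenerative epithelium tested, 9 were higher and 4 lower, with a median of 0.15. Outside that list, the 3 genes that follow were higher in every DT library than in saline. Sprr2a3, a small proline-rich protein of the cornified envelope, was at 10.8 to 13.4 CPM in saline and 33.1 to 57.3 CPM in DT (log2 1.81, SE 0.23, edgeR adjusted p 2.2e-06). Il24, a cytokine of the IL-10 family that acts on epithelia, was at 0.3 to 0.624 CPM and 1.81 to 4.11 CPM (log2 2.72, SE 0.31, edgeR adjusted p 3.9e-07). Apod, a lipid carrier, was at 16.7, 18, 15.8 and 11.3 CPM in saline and 48.3, 72.6, 63.4 and 44.2 CPM in DT (log2 1.89, SE 0.35, edgeR adjusted p 2.5e-04). None of the 3 was called at 96 h. Of 16 goblet cell genes tested 2 were higher and 9 lower, of 19 Paneth cell and antimicrobial genes none was higher in edgeR and 11 were lower, and of 20 gastric-type genes 3 were higher and 6 lower. Fcgbp, a mucus protein of goblet cells, was at 393, 379, 316 and 270 CPM in saline and 86.6, 78.2, 62.7 and 133 CPM in DT (log2 -1.92, SE 0.24, edgeR adjusted p 2.3e-06). Muc6, a gel-forming mucin of gastric glands, was at 328, 286, 367 and 282 CPM and 195, 140, 81.6 and 143 CPM (log2 -1.18, SE 0.19, edgeR adjusted p 3.8e-05). Ctse, for cathepsin E, was at 687 to 842 CPM and 387 to 567 CPM (log2 -0.77, SE 0.10, edgeR adjusted p 3.4e-06). DT 3 was lowest for Muc6 and highest for Ctse, and neither gene overlapped between groups.

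Several lists had shares called that lie near those of all genes, so their counts carry no result about the list. Of 49 genes of basement membrane and adhesion 10 were higher and 7 lower (6 higher without saline 1), of 31 matrix proteases and inhibitors 4 and 5, of 43 genes of glutathione and xenobiotic metabolism 7 and 7, and of 36 genes of insulin, IGF and mTOR signalling 4 and 8. Single members were nevertheless well separated. Cldn23, a claudin of tight junctions, was at 30.9 to 38.4 CPM in saline and 15.5 to 21.9 CPM in DT (log2 -0.90, SE 0.11, edgeR adjusted p 1.0e-06), while Cldn7, of the same family, was at 248 to 267 CPM and 298 to 394 CPM (log2 0.36, SE 0.08, edgeR adjusted p 9.2e-04). Aldh1a3, which makes retinoic acid, was at 69.1 to 78.4 CPM in saline and 28.2 to 45.4 CPM in DT (log2 -1.01, SE 0.17, edgeR adjusted p 7.0e-05). Rbp4, a retinol carrier, was at 65.2 to 104 CPM and 31.4 to 45.2 CPM (log2 -1.02, SE 0.16, edgeR adjusted p 2.4e-05). Both are retinoid genes, of which 4 of 21 tested were lower and 1 was higher. Deptor, an inhibitor that binds mTOR, was at 73.9 to 91.4 CPM and 45.2 to 56.6 CPM (log2 -0.69, SE 0.12, edgeR adjusted p 7.2e-05). Dnmt1, which maintains DNA methylation after replication, was at 113, 107, 114 and 114 CPM in saline and 196, 193, 210 and 159 CPM in DT (log2 0.76, SE 0.07, edgeR adjusted p 3.9e-08). It belongs to a list of chromatin silencing genes, of which 12 of 37 tested were higher and 9 lower.

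Targets of NRF2 and genes of the pentose phosphate pathway were split. Of 30 tested 11 were higher and 8 lower (7 higher without saline 3). Ephx1, an epoxide hydrolase, was at 30.8 to 34.3 CPM in saline and 12.4 to 20.2 CPM in DT (log2 -1.08, SE 0.13, edgeR adjusted p 5.8e-07). Txn1, for thioredoxin, the protein that Txnip binds, was at 160, 150, 158 and 168 CPM and 204, 221, 287 and 199 CPM (log2 0.52, SE 0.10, edgeR adjusted p 2.2e-04). Thioredoxin and its inhibitor thus rose together in these libraries.

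Genes of signals and defence moved in both directions, and the lists counted here may include interferon targets. Of 39 genes of the NF-kB response tested, 15 were higher and 5 lower. Ccl20, a chemokine that attracts lymphocytes and dendritic cells, was at 0.45 to 1.62 CPM in saline and 4.42 to 6.33 CPM in DT (log2 2.33, SE 0.31, edgeR adjusted p 3.4e-06). Tnfsf15, a cytokine of the TNF family, was at 0.15 to 0.423 CPM and 3.12 to 4.88 CPM (log2 3.82, SE 0.33). Nfkbiz, an inducible regulator of the response, was at 198 to 260 CPM in saline and 121 to 155 CPM in DT and fell by 0.78 (SE 0.09, edgeR adjusted p 9.3e-07). All 3 were without overlap, so the scarce ligands rose where the more abundant regulator fell. Of 38 genes of complement and coagulation, 6 were higher and 10 lower. F3, tissue factor, which starts clotting, rose by 1.35 (SE 0.16) from a mean of 57.1 to 145 CPM. Cfi, a protease that limits complement, was at 574, 551, 543 and 570 CPM and 311, 254, 271 and 341 CPM (log2 -0.93, SE 0.09, edgeR adjusted p 3.9e-08). Among lipid mediators, where 4 of 28 genes were higher and 5 lower, Aloxe3, an epidermal lipoxygenase, was at 0.225 to 1.2 CPM in saline and 5.65 to 11.5 CPM in DT (log2 3.32, SE 0.32, edgeR adjusted p 3.8e-08). Ptgds, a prostaglandin D synthase, was at 20 to 26.6 CPM and 5.39 to 8.6 CPM (log2 -1.81, SE 0.19, edgeR adjusted p 1.4e-07).

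Genes of cell death were called in both directions. Of 39 genes of the BCL2 family, caspases and necroptosis tested, 11 were higher and 15 lower (9 lower when low genes were kept). Casp4, an inflammatory caspase, rose from a mean of 7.53 to 19.1 CPM (log2 1.34), and Bmf, a BH3-only killer protein, fell from 63 to 30 CPM (log2 -1.07). Of 32 p53 targets tested 9 were higher and 12 lower. Cdkn1a, a target that halts the cycle, was at 105 to 142 CPM in saline and 89.7 to 110 CPM in DT with overlap (log2 -0.41, SE 0.12, edgeR adjusted p 0.00638).

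Genes linked to low oxygen and sterols were lower in larger shares than all genes, as were other lists. Of 27 immediate early genes 20 were lower and 2 higher (median -0.46). Of 32 Wnt target and feedback genes tested 14 were lower and 1 higher (median -0.38). Of 35 genes of glycolysis and hypoxia 22 were lower and none higher in edgeR (median -0.33). Vegfa, the vessel growth factor, was at 365, 343, 399 and 362 CPM in saline and 190, 167, 152 and 183 CPM in DT (log2 -1.09, SE 0.12, edgeR adjusted p 4.0e-07). Of 25 cholesterol genes 19 were lower and 1 higher (median -0.39). Insig1, a sterol sensor, was at 83.5 to 95.1 CPM and 46.4 to 48.3 CPM (log2 -0.92, SE 0.08, edgeR adjusted p 6.3e-09). Neither gene's groups overlapped. Tfeb, the transcription factor of lysosome genes, was at 28 to 36.1 CPM in saline and 16 to 22.6 CPM in DT (log2 -0.68, SE 0.10, edgeR adjusted p 7.3e-06). Fatty acid oxidation and ketone genes were mixed, with 8 of 32 higher and 5 lower (5 higher without DT 4 or saline 3). Bdh1, which interconverts ketone bodies, was at 20.8 to 22.1 CPM in saline and 40.2 to 47.9 CPM in DT (log2 1.0, SE 0.11, edgeR adjusted p 4.2e-07).

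Iron genes were called lower more than higher. Of 19 iron genes tested 9 were lower and 1 was higher. Fth1, the heavy chain of the iron store ferritin (chr19:9980600-9985111), was at 1378, 1347, 1218 and 1141 CPM in saline and 525, 615, 604 and 770 CPM in DT (log2 -1.02, SE 0.12, edgeR adjusted p 4.6e-07). Trf, for transferrin, the iron carrier of plasma, was at 426, 525, 374 and 431 CPM and 103, 144, 153 and 103 CPM (log2 -1.80, SE 0.23). The groups were apart for both, and the exception that rose was Steap1, a metalloreductase relative, at 7.24 to 10.5 CPM and 15 to 17.5 CPM (log2 0.92, SE 0.15, edgeR adjusted p 3.1e-05). Of 22 genes of metallothioneins and zinc transport, 3 were higher and 8 lower, with a median of -0.03 (5 lower when low genes were kept). Mt3, a metallothionein known from brain, was at 15.2 to 21.4 CPM in saline and 0.96 to 1.71 CPM in DT (log2 -3.91). Slc30a2, a zinc exporter, fell by 1.72 from a mean of 135 to 40.9 CPM.

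The steepest falls were far larger than that of Lgr5. In all, 291 genes fell by more than Lgr5, of which 104 had at least 10 CPM in saline, and 14 of those fell at least 8-fold. Pnliprp2, a lipase known from exocrine pancreas (chr19:58759723-58777534), was at 815, 926, 616 and 576 CPM in saline and 4.88, 11.7, 5.69 and 17.3 CPM in DT, which is 72.5-fold lower (log2 -6.18, SE 0.92, edgeR adjusted p 2.1e-05). Its neighbour Pnliprp1 (chr19:58728887-58744169), of the same family, was at 707, 687, 524 and 412 CPM and 15.2, 24.9, 16 and 41.2 CPM (log2 -4.57, SE 0.63). DT 4 kept the most of both. Spock2, a matrix proteoglycan (chr10:60106257-60135198), was at 1000, 1478, 1095 and 1004 CPM in saline and 42.8, 67.7, 33.8 and 90.3 CPM in DT, 19.5-fold lower (log2 -4.28, SE 0.47, edgeR adjusted p 6.7e-07). Gulo, the enzyme for the last step of vitamin C synthesis, was at 190, 212, 164 and 127 CPM and 14.6, 13.2, 13.5 and 27.9 CPM (log2 -3.33, SE 0.40). Ms4a2, a subunit of the IgE receptor (chr19:11615517-11623790), was at 14.2 to 35.8 CPM in saline and rested on 23 counts over all 4 DT libraries. None of these 5 genes overlapped between groups. The other 9 of the 14 were C8b (a complement subunit), Slc44a5 and Slc4a5 (transporters of the choline and bicarbonate families), Mt3, Tpsb2, Snhg11, 9530003J23Rik, 9330117O12Rik and a gene without a symbol. Slc44a5 was at 24.5, 25.6, 20.6 and 15.5 CPM in saline and 0.428, 0.772, 0.48 and 1.17 CPM in DT (log2 -4.87, SE 0.48, edgeR adjusted p 1.2e-07).

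Ms4a2 and Tpsb2, a tryptase, are genes of mast cells, but the other defining genes of that cell did not follow. Of 15 mast cell markers tested, 1 was higher and 2 were lower, and the 2 that fell are these. Tpsb2 was at 13.6 to 26.7 CPM in saline and 0.685 to 4.21 CPM in DT (log2 -3.18). Cpa3, Mcpt1, Mcpt4 and Cma1, proteases stored in mast cell granules, were near 1 CPM in both groups and none was called. Kit, the receptor these cells share with others, was higher in DT with overlap (means 45.5 and 78.2 CPM, log2 0.77). The digestive enzyme list likewise had 7 of 11 tested genes lower and 1 higher, and its sum went from 1133 to 1739 CPM in saline to 90.7 to 160 CPM in DT, most of it the 2 lipases. Amy1, for amylase, fell by 2.29 (from 8.39 to 13.4 CPM to 1.26 to 2.74 CPM), while Ctrb1, for chymotrypsinogen, was at 0 to 0.154 CPM in saline and 0.776 to 1.71 CPM in DT.

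Falls of this size were called again at 96 h, and rises of this size were not. At 96 h, in libraries that share none with those of 24 h, all 14 genes were again called lower (edgeR adjusted p 2.8e-04 to 0.00532) and for none was the effect called different between the times (edgeR adjusted p 0.0533 to 0.798). At that time 176 genes (1.01%) were higher and 528 (3.02%) lower over all genes tested. Of 34 genes at least 8-fold lower at 24 h, 29 (85.3%) were lower at 96 h, with a median log2 of -3.89 and then -2.80. Of 23 genes at least 8-fold higher at 24 h, 0 were called higher at 96 h, with a median of 3.48 and then 0.42, although 21 kept the sign. The effect itself differed between the times in 17 of these 23 genes (73.9%) and in 3 of the 34 (8.82%). The sets counted here by fold were taken from all genes tested, interferon and cell-cycle genes included. Of the genes called at least 2-fold, 65 of 578 higher (11.2%) and 214 of 487 lower (43.9%) were called in the same direction at 96 h. These genes were chosen by their 24 h values, so a smaller value at 96 h is partly built into the choice.

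The difference between the 24 h and the 96 h effect was called in 2079 genes (11.9%). Of these, 2024 were also called at 24 h and lay further in that direction at 24 h than at 96 h. Ribosome assembly factors had 46 of 77 members among the 2079. At 96 h 6 of the 77 were higher and none lower in edgeR, with a median of 0.13. Nop56 differed by 0.89 (edgeR adjusted p 6.1e-06) and Vars by 0.70 (edgeR adjusted p 1.4e-05). Of the protein-coding genes of the mitochondrial genome tested, 7 of 8 differed between the times, among them CYTB by -0.59 (edgeR adjusted p 0.00622). Nr1d1 was not called at 96 h (log2 0.33, edgeR adjusted p 0.12) and its effects differed by 2.06 (SE 0.16, edgeR adjusted p 1.2e-07). Cdh13, a cadherin anchored in the membrane, was at 392 to 469 CPM in saline and 140 to 168 CPM in DT at 24 h (log2 -1.51, SE 0.09, edgeR adjusted p 8.3e-11), and the effect was larger than at 96 h by -1.01 (edgeR adjusted p 2.7e-05). Ltbp4, which holds latent TGF-beta in the matrix, was at 530 to 584 CPM and 250 to 311 CPM (log2 -0.94, SE 0.08), had a log2 of 0.09 at 96 h, and its effects differed by -1.04 (edgeR adjusted p 9.6e-06). The nuclear pore gene Nup50, at 63.4 to 72.5 CPM and 102 to 110 CPM, differed by 0.57 (edgeR adjusted p 4.0e-05). For Lgr5 the effect at 96 h was -0.43 (edgeR adjusted p 0.0447), smaller than at 24 h by 0.86 in size (edgeR adjusted p 0.00232).

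**Figure D5:**
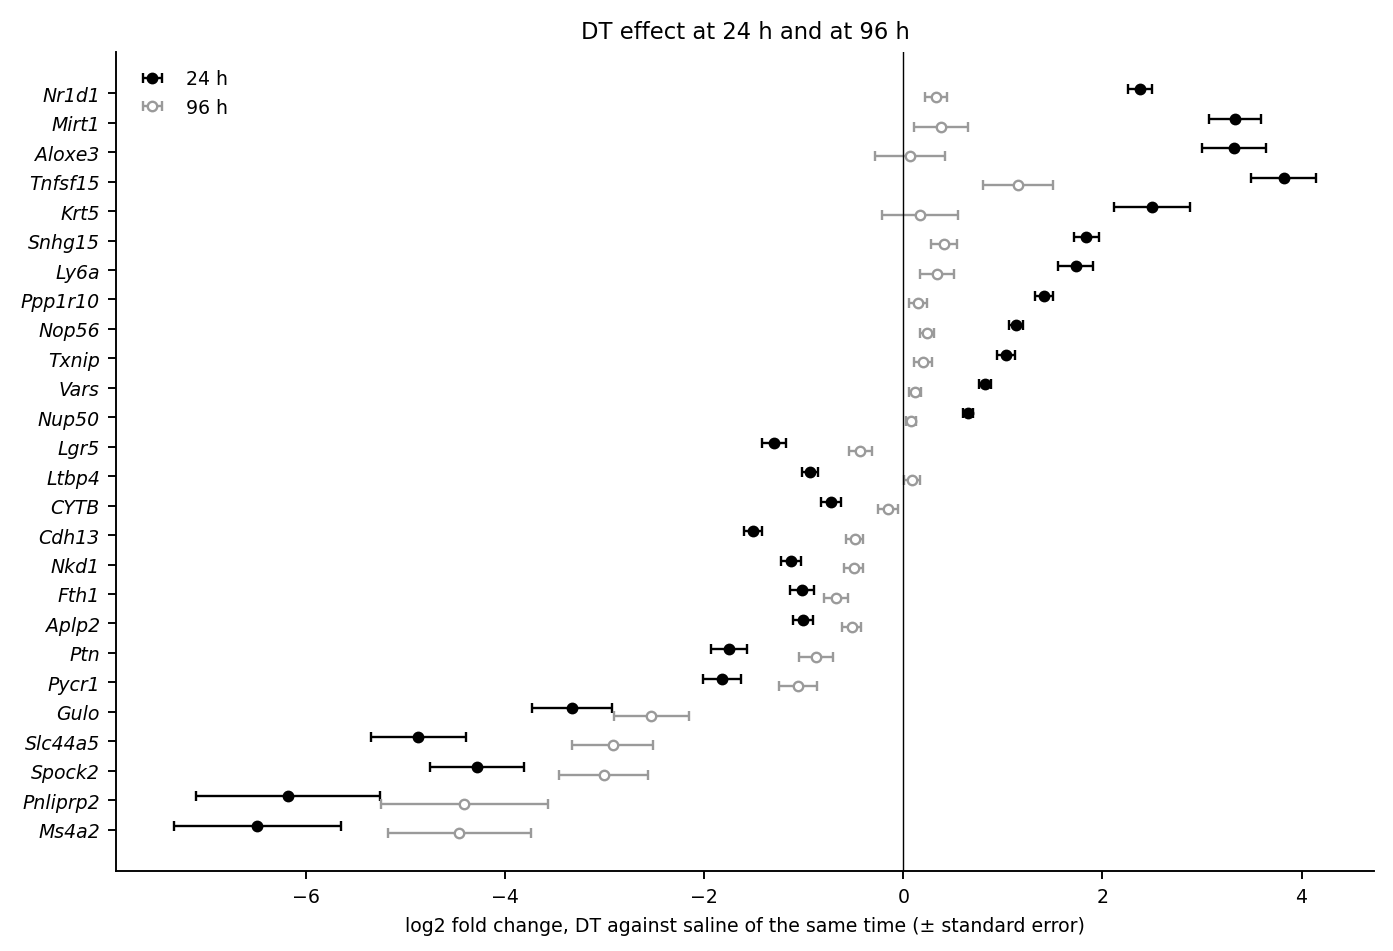
Log2 difference between DT and saline of the same time for a selection of named genes, 1 row for each gene. Filled points are 24 h, open points are 96 h, and bars are standard errors. Pnliprp2 (-6.18 at 24 h and -4.41 at 96 h) keeps most of its fall, and Nr1d1 (2.38 at 24 h and 0.33 at 96 h) lies near 0 at 96 h.

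Among transcripts without a protein product, 26.2% of 1365 genes were called, against 41.9% of 14277 coding genes, with a median level of 1.67 CPM that places most in the classes of low abundance. Of the noncoding genes 139 were higher and 218 lower. Mirt1 was at 1.66, 1.95, 2.18 and 2.31 CPM in saline and 28.1, 23.4, 16.5 and 14 CPM in DT (log2 3.33, SE 0.26, edgeR adjusted p 3.4e-09). DT 1 was highest and DT 4 lowest, and all were far above saline. Snhg11, a host gene expressed in neuroendocrine cells, was at 26.8, 38.7, 36 and 22 CPM in saline and 1.11, 2.39, 0.554 and 2.44 CPM in DT (log2 -4.21, SE 0.59, edgeR adjusted p 1.0e-05). Malat1, the most abundant of them named here, was not called (log2 -0.74, SE 0.37, edgeR adjusted p 0.126): DT 1 lay within the saline range and DT 3 far below it.

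The sort also held transcripts that mark other cell types, some of which were called. Of 18 fibroblast markers 2 were higher and none lower in edgeR. Col1a1, for collagen I, was at 1314, 1572, 1301 and 1290 CPM in saline and 966, 2507, 2537 and 1581 CPM in DT and was not called (log2 0.47, edgeR adjusted p 0.293). Endothelial markers summed to 362 to 482 CPM in saline and 422 to 520 CPM in DT, macrophage markers to 407 to 565 CPM and 269 to 688 CPM. Of 17 listed T and NK cell markers 4 were tested and 2 were lower. Their sum was at 34.7 to 50.6 CPM in saline and 13 to 18.9 CPM in DT and was led by Zap70, a T cell receptor kinase, at 30 to 45 CPM and 8.99 to 14 CPM (log2 -1.68). Tuft cell markers summed to 1104, 964, 1092 and 1136 CPM in saline and 1423, 1257, 1247 and 1532 CPM in DT, without overlap. Of the 21 tested 7 were higher and 3 lower, a split that fell to 2 higher without DT 4, 1 without saline 2 and 4 without saline 3 or saline 4. Dclk1, a tuft cell kinase, was at 125 to 151 CPM in saline and 87.8 to 111 CPM in DT (log2 -0.56, SE 0.16, edgeR adjusted p 0.00629), while Trpm5, a taste channel of the same cells, was at 53.9 to 87.6 CPM and 101 to 157 CPM (log2 0.67, SE 0.24, edgeR adjusted p 0.032). Single markers of tuft cells thus differed in direction, while their sum was higher in each DT library. Of 10 epithelial identity genes tested 3 were higher and 4 lower. Together they summed to 9029 to 9852 CPM in saline and 9002 to 10666 CPM in DT, in overlapping ranges. The part of other cell types in the results above was not tested.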

How the data were processed

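The 24 poly(A) RNA libraries come as tables with a count and a normalised RPKM for each Entrez gene. Per the file headers, the deposited count is of uniquely aligned reads and the deposited RPKM was scaled with size factors. The aligner GSNAP and the build GRCm38 are named in the submitters' processing notes. The sources used here state neither their versions nor whether counting used strand. RPKM served only to recover the authors' size factors. Symbols came from RefSeq: 31049 of 36528 ids (85.0%) matched, and unmatched ids held 1.35% to 1.52% of counts at 24 h.

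Counts were fitted in R 4.3.3 with edgeR 4.0.16 (filterByExpr by group, TMM, robust quasi-likelihood, 6 groups of 4 libraries, no block), after the method had been tested on simulated data. Benjamini-Hochberg adjustment ran over 17468 genes, at 0.05. Alternatives used limma 3.58.1, DESeq2 1.42.0, other scalings, no filter, 24 h libraries alone, a replicate block, and each library left out in turn. Intervals and errors cover the spread between libraries, and depth at 24 h was 11315650 to 27633431 counts.

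The lists and named genes were chosen with earlier results of these data known. Genes were named by rule, leaving out interferon and cell-cycle genes known by fixed lists and symbol prefixes. Some related genes passed, such as the histone gene H4c9 and the interferon-induced Ly6a. The rules took the 12 largest changes of CPM in each direction. In each abundance class from 1 CPM up, they took the 6 largest log2 changes without overlap. They also took the 6 largest among noncoding genes of at least 5 CPM and the 10 smallest p for 24 h against 96 h. From each list came up to 4 members with the smallest p, with defining members that were not called. Atf4, Cdkn1a, Ctsf, Nop2, Rrp12, Trib3, Trpm5 and the genes whose promoters are printed, up to 3 per list and motif by smallest p, were chosen after their values were seen.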

Additional observations from a re-analysis of the deposited data

Results flagged for a closer look

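Single libraries that stood apart from the other 3 of their group were found in 6 of 194 groups checked (3.09%), where chance gives about 1 in 20. By gene and level these were Mt3 in saline 4 (lowest, 15.2 CPM), Gulo in DT 4 (highest, 27.9 CPM), Pycr1 in saline 2 (highest, 240 CPM), the noncoding Gm34751 in saline 3 (highest, 7.19 CPM) and the histone gene H4c9 in saline 4 (lowest, 4.7 CPM). In the sixth, genes of 10 to 100 CPM took 34.4% of counts in DT 4, the highest of the DT libraries.

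For Lgr5 and the 10 genes with the smallest p in a test of the difference, among others, the DT effect at 24 h differed from that at 96 h (edgeR's quasi-likelihood test, adjusted over all genes tested). The effect at 24 h was the higher for Nr1d1 by 2.06 on the log2 scale, H4c9 by 1.5, Slc23a3 by 1.35, Ppp1r10 by 1.26, Nop56 by 0.89, Vars by 0.70, the RNA-degrading enzyme gene Pnpt1 by 0.68 and Nup50 by 0.57. It was the lower for Ltbp4 by -1.04, Cdh13 by -1.01 and Lgr5 by -0.86. H4c9 changed sign between the times: its log2 difference was 0.85 at 24 h (means 5 and 9.01 CPM) and -0.66 at 96 h (edgeR adjusted p 0.00256).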

How the results depend on the processing

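No called gene was called in the opposite direction under any alternative, and none of the 75 named genes followed changed sign. With every library kept and no block, the count of genes higher ran from 3283 to 3775 and of genes lower from 2506 to 3637. Leaving out a library gave 2883 to 3325 higher, 2823 to 3496 lower, 546 to 632 at least 2-fold higher, 431 to 588 at least 2-fold lower and 1577 to 2367 differing between 24 h and 96 h. DESeq2 called 3549 higher and 3287 lower, and voom 3556 and 3637. The 24 h libraries alone gave 3283 higher and 2736 lower. Keeping low genes moved the split to 60.1% higher, from 51.3%. Of 75 named genes 71 kept every call over 16 alternatives; the others were Krt7, Fn1, Clu and Spp1, of which Clu lost its call only with the block. Of 1056 list counts recomputed, 1022 stayed within 1.5 times, among them all under another scaling, and no other scaling moved the median of all genes by over 0.1.

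With a replicate block, 2446 genes were higher and 1986 lower, and 15 cytosolic ribosomal protein genes were higher. The labels do not say whether the replicate numbers pair the libraries. Deviations of same-numbered libraries from their group means correlated at -0.278, 0.173, -0.51 and -0.297. Such values cannot decide on pairing, since centring each small group ties its deviations to one another. The block and the fit on 24 h libraries alone gave no value for 24 h against 96 h, since they hold no 96 h libraries. Keeping low genes left 13 lysosomal, 5 unfolded protein response and 5 metallothionein and zinc genes lower, and 3 clock genes. Scarce transcripts limit the comparison: genes under 1 CPM called higher numbered 153, and 370, 84 and 60 with low genes kept, 24 h libraries alone and the block.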

Other observations

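By chromosome, chromosome 19 had 145 of 563 genes tested higher (25.8%) and 97 lower (17.2%), chromosome 18 had 78 of 454 higher (17.2%) and 126 lower (27.8%), and the X had 61 of 491 higher (12.4%) and 95 lower (19.3%), against 19.9% and 18.9% over all genes. Of 251 pseudogenes tested, 50 were higher and 18 lower; reads of these and of their parent genes can be exchanged in alignment. The gene for GAPDH, an enzyme that most cells make in quantity, stood near 5 CPM in these counts of uniquely aligned reads, and levels of genes with many genomic copies are uncertain.

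Of 37 genes of homologous recombination and the Fanconi pathway, which repair broken and crosslinked DNA, 23 were higher and 2 lower, with a median log2 difference of 0.39. Among 33 transcription factors of the endoderm tested, 2 were higher and 11 lower. Hnf4a, an intestinal regulator, rose from a mean of 103 to 150 CPM (log2 0.54, SE 0.07), and Foxa1, a pioneer factor, fell from 214 to 149 CPM (log2 -0.52).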
